A study of Arabidopsis thaliana with 4 samples.

Results

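The genes described here are 8 regulators of anthocyanin synthesis in Arabidopsis thaliana, taken by locus from the 33341 genes of the count tables. They are the MYB genes PAP1 (AT1G56650) and PAP2 (AT1G66390), the bHLH genes TT8 (AT4G09820), GL3 (AT5G41315) and EGL3 (AT1G63650), the WD-repeat gene TTG1 (AT5G24520), and the repressor genes MYBL2 (AT1G71030) and CPC (AT2G46410). Reads per gene were counted in 4 mRNA libraries of whole seedlings 12 days old, raised at 22 °C on MS plates with 1% sucrose in days of 16 h light and 8 h dark. The wild type Col gave 2 libraries, and the mutants atprmt3 and rps2a2b gave 1 each, with no further treatment named in the labels. The mutants are named for PRMT3, a protein arginine methyltransferase, and for the RPS2 genes, which encode a protein of the small ribosomal subunit, and the series concerns how PRMT3 and RPS2B act in ribosome assembly and nucleolar stress. The labels describe neither the lesions nor the number of plants pooled for a library.

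Anthocyanins are red to purple flavonoid pigments that seedlings form in the epidermis under strong light, sugar or nutrient stress. Their late enzyme genes are switched on by a complex of a MYB protein, a bHLH protein and the WD-repeat protein TTG1, called the MBW complex. MYBL2 and CPC carry a single MYB repeat, bind the same bHLH proteins and hold the complex back. Complexes with other MYB partners, such as WER and GL1, use GL3, EGL3 and TTG1 to set the fates of root-hair cells and trichomes.

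Library depth, as counts on genes, was lowest in rps2a2b (15194770) and highest in atprmt3 (18650053). The pair of Col libraries showed no variation beyond counting noise, with a chi-square of 0.989 per gene over 20569 genes, and was summed as 1 sample, so each genotype is a single sample (n = 1). Nothing says whether libraries came from separate cultures. No test of the genotypes was possible, and differences are between libraries, with 95% intervals that cover counting error only. Between the mutant libraries the chi-square was 6.12 per gene for the 4263 genes with 10 to 99 summed counts, and widened intervals built on this factor are given where they bear on a value. PRMT3 counted 237 and 254 reads in Col, 132 in atprmt3 and 315 in rps2a2b, and RPS2A had 334 and 318, 580 and 167, so each mutant was low for the gene it is named after. RPS2B was listed at 0 in all 4 libraries and checks nothing here. The leaf markers RBCS1A, CAB1, CAB3 and RCA and the root marker PYK10 were read in every library, as whole seedlings should show.

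A gene is called here when its depth-normalised read count (CPM, scaled by TMM) was at least 2-fold apart. Of the 8 regulators, 7 passed the filter on low counts, and 3 of these were called in each mutant against Col. TT8 and GL3 were higher in both mutants and MYBL2 was lower in both. PAP1, EGL3, TTG1 and CPC lay within 2-fold of Col in both mutants, and PAP2 was read in rps2a2b alone, below the filter. Over all 20937 genes tested, 8.95% were at least 2-fold higher and 6.21% at least 2-fold lower in atprmt3, and 9.97% and 6.19% in rps2a2b. TT8 and GL3 passed the filter through the mutant libraries, so their presence among the genes tested already required a difference. The median log2 ratio of the 7 genes was 0.28 in atprmt3 and -0.04 in rps2a2b, beside 0.01 and 0.00 over all genes tested. In whole seedlings, fewer cells of a type and less RNA per cell cannot be told apart.

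**Figure D1:**
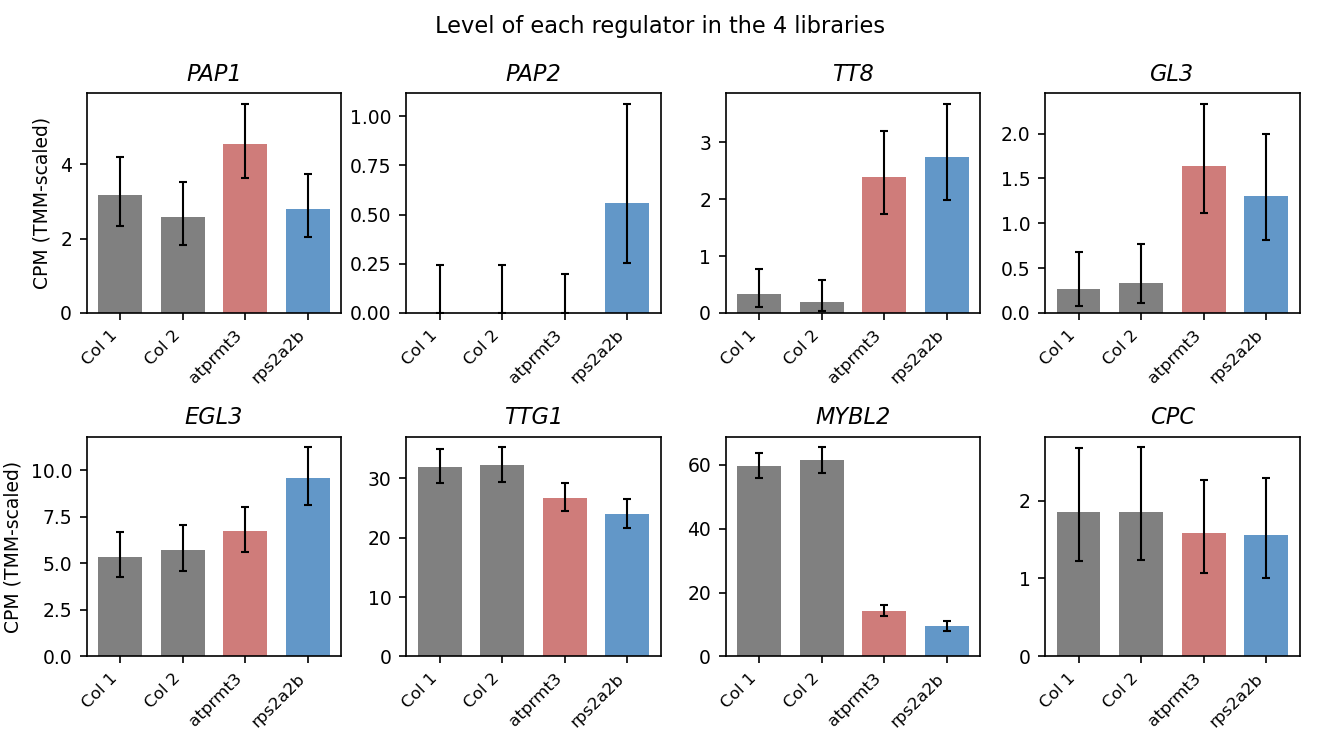
Level of each of the 8 regulators in CPM (linear axis from 0, TMM-scaled) in the 2 Col libraries, atprmt3 and rps2a2b. Bars are single libraries and lines are exact 95% counting intervals; MYBL2 stands at 59.8 and 61.4 CPM in the Col libraries and at 14.2 and 9.57 CPM in the mutants, while TT8 and GL3 are lowest in Col.

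The promoters of the genes that were called, and of PAP2, are shown because these are the regulators whose levels stood apart from Col. Each line gives the 250 bases before the annotated start in the TAIR10.1 assembly, 5′ to 3′ along the gene. Capitals mark the MYB-recognising element ANCNNCC and the G-box CACGTG, a site of bHLH and bZIP factors, found on either strand.
MYBL2 (chr1:26796533-26796782, minus strand): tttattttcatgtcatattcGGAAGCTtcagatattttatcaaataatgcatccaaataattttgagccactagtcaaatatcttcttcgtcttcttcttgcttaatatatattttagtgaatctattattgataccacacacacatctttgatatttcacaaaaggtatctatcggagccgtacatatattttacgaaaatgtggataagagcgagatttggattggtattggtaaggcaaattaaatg
TT8 (chr4:6181631-6181880, plus strand): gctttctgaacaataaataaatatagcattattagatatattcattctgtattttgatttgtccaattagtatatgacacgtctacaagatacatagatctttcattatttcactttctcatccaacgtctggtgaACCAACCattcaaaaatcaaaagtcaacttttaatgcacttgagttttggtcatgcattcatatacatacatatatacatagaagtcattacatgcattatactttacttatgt
GL3 (chr5:16528840-16529089, plus strand): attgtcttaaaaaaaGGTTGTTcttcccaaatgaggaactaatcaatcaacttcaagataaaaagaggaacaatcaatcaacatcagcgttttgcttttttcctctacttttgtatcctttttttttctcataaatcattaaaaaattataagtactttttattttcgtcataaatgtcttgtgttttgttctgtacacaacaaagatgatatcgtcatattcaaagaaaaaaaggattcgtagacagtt
PAP2 (chr1:24763691-24763940, plus strand): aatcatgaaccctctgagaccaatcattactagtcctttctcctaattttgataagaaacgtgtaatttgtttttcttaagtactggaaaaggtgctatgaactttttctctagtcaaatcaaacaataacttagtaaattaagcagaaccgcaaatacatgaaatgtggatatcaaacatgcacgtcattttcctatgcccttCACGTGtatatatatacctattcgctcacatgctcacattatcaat
MYBL2, TT8 and GL3 each held 1 MYB element in this window, a motif present in 48.8% of 27443 promoters of the same length. PAP2 held none but had 1 G-box, beginning 46 bases before the start, a motif found in 6.49% of promoters. The looser E-box CANNTG, which every G-box also matches, occurred once in TT8 and GL3, 2 times in PAP2 and not in MYBL2, against 55.3% of promoters with at least 1. Among the other regulators, PAP1 held 1 MYB element and CPC 3, some of which share bases, while EGL3 held none of the 3 motifs and TTG1 only 1 E-box. These matches describe the letters in the window and show no binding.

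MYBL2 encodes a single-repeat MYB protein that binds TT8 and its relatives and represses DFR and TT8. It lies on chromosome 1 from 26795052 to 26796532 on the minus strand, and all of its exonic 50-base stretches (100%) are unique in the genome. The Col libraries gave it 905 and 927 counts, atprmt3 269 and rps2a2b 154. Both mutant libraries were far below both Col libraries, and rps2a2b was the lower of the mutants. Its level was 60.6 CPM in Col (57.9 to 63.5), 14.2 CPM in atprmt3 (12.6 to 16.1) and 9.57 CPM in rps2a2b (8.12 to 11.2). This was 4.25-fold lower than Col in atprmt3 (3.74 to 4.85) and 6.33-fold lower in rps2a2b (5.37 to 7.51). The log2 ratios of -2.09 and -2.66 kept clear of 0 with the widened intervals, which ran from -2.57 to -1.61 and from -3.27 to -2.06. The widening factor came from genes with fewer counts and may be too small for MYBL2. Among the 8640 tested genes averaging 20 CPM or more over the 3 genotypes, MYBL2 had the lowest ratio of all in rps2a2b and was number 7 from the bottom in atprmt3. MYBL2 reached that average through Col, with both mutants under 20 CPM. Its place in this subset thus leans on its high Col level, and no support is drawn from it. Over all 20937 genes tested, it was number 133 from the bottom in rps2a2b and number 331 in atprmt3. Between the mutants, rps2a2b was 1.49-fold below atprmt3 (1.22 to 1.83), which the widened interval of the log2 ratio, -1.28 to 0.13, did not separate from 0.

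The genes whose pair of ratios lay nearest to that of MYBL2, among 18376 genes with at least 100 counts and over the 3 genotypes, were SAUR22 (AT5G18050), JP630 (AT1G23760) and AT3G55940. SAUR22, of the small auxin-up RNA family, stood at log2 ratios of -1.98 in atprmt3 and -2.75 in rps2a2b, at a Euclidean distance of 0.14. JP630 lay at -2.05 and -2.52 (distance 0.15) and AT3G55940 at -1.95 and -2.71 (distance 0.15). All 3 were weaker genes than MYBL2, with 5.03, 2.85 and 3.67 CPM in Col. They had 24, 13 and 18 counts in atprmt3 and 12, 8 and 9 in rps2a2b. With so few reads, which genes lie nearest is loosely set.

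CPC encodes a small single-repeat MYB that moves between epidermal cells of the root and competes with WER for bHLH partners, and it can also repress anthocyanin genes. The gene is on chromosome 2 from 19049021 to 19050369 on the minus strand. It had 28 counts in each Col library, 30 in atprmt3 and 25 in rps2a2b. The libraries did not stand apart, and the ratio to Col was 0.858 in atprmt3 (0.531 to 1.36) and 0.839 in rps2a2b (0.501 to 1.37). A difference within these intervals was not detectable at this depth, and the folds seen for MYBL2 lie outside them.

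TT8 encodes the bHLH protein that pairs with PAP1 in the pigment complex and takes part in its own activation. TT8 is on chromosome 4 from 6181881 to 6186523 on the plus strand. It was read 5 and 3 times in Col, 45 times in atprmt3 and 44 times in rps2a2b. Both mutants were high and close to each other, at 2.38 CPM (1.74 to 3.19) and 2.74 CPM (1.99 to 3.67), against 0.265 CPM in Col (0.114 to 0.522). The level was 9.004-fold that of Col in atprmt3 (4.201 to 22.1) and 10.3-fold in rps2a2b (4.81 to 25.4). With the widened intervals the log2 ratios of 3.17 and 3.37 ran from -0.34 to 6.68 and from -0.14 to 6.88, both of which hold 0, and with 8 counts in Col the size of the fold is loosely set. Between the mutants the ratio was 1.15 (0.740 to 1.78).

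GL3 encodes a bHLH protein known chiefly from trichome and root-epidermis patterning. GL3 spans chromosome 5 from 16529090 to 16533287 on the plus strand, where 1 gene on the other strand, AT5G06145, overlaps it and had 0 counts in every library. Its counts were 4 and 5 in Col, 31 in atprmt3 and 21 in rps2a2b. Both mutants were above both Col libraries, at 5.51-fold (2.56 to 13.2) and 4.38-fold (1.92 to 10.9) the Col level. The widened intervals of the log2 ratios of 2.46 and 2.13 included 0, from -0.94 to 5.86 and from -1.38 to 5.64.

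EGL3, the close relative of GL3 that serves both pigment and epidermal complexes, had 81 and 86 counts in Col, 127 in atprmt3 and 154 in rps2a2b. It lies on chromosome 1 from 23599413 to 23603164 on the plus strand. Its level was 5.53 CPM in Col (4.72 to 6.43), 6.73 CPM in atprmt3 (5.61 to 8.00) and 9.57 CPM in rps2a2b (8.12 to 11.2). The rps2a2b library was the high one, 1.73-fold above Col (1.38 to 2.17), and atprmt3 was at 1.22-fold with an interval that held 1 (0.959 to 1.54). Per kilobase of exon, EGL3 made up 89.7% of the summed level of the 3 bHLH genes in Col, with 5.61% from TT8 and 4.68% from GL3. In atprmt3 EGL3 made up 58.9%, TT8 27.2% and GL3 13.9%, and in rps2a2b the shares were 66.4%, 24.8% and 8.78%. The summed bHLH level was 2.35 CPM per kilobase in Col, 4.37 in atprmt3 and 5.51 in rps2a2b. In Col the TT8 and GL3 shares rest on 8 and 9 counts, and both genes entered the tested genes through the mutant libraries. No difference between genotypes is therefore read from the shares or the sum.

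PAP1, the MYB that sets anthocyanin level in seedlings and responds to sucrose, stayed within 2-fold of Col. The gene lies on chromosome 1 from 21233555 to 21235292 on the minus strand. Its counts were 48 and 39 in Col, 86 in atprmt3 and 45 in rps2a2b. The atprmt3 library was the high one, at 4.56 CPM (3.64 to 5.63) against 2.88 CPM in Col (2.31 to 3.55) and 2.80 CPM in rps2a2b (2.04 to 3.74). PAP1 was 1.58-fold above Col in atprmt3 (1.16 to 2.16), with a widened log2 interval of -0.60 to 1.93, and at 0.972 of Col in rps2a2b (0.663 to 1.41). Between the mutants rps2a2b was 1.63-fold lower (1.12 to 2.39), again with a widened log2 interval, -1.99 to 0.58, that held 0.

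PAP2, a close relative of PAP1, had 0 counts in both Col libraries, 0 in atprmt3 and 9 in rps2a2b. It lies on chromosome 1 from 24763941 to 24765541 on the plus strand, and 95.6% of its exonic 50-base stretches are unique, so reads of close copies could be lost or gained. A count of 0 allows a level of up to 0.0993 CPM in Col and 0.159 CPM in atprmt3 by the floor of 3 counts per group, and up to 0.122 and 0.195 CPM by the wider exact interval. At 0.560 CPM (0.256 to 1.06), rps2a2b was at least 5.64-fold higher than Col, provided that reads are independent, and with counting error on the 9 reads also included the exact interval of the ratio began at 3.71-fold. With the widened interval of the log2 bound, -3.45 to 8.44, the difference was not separated from 0. The neighbouring copies MYB113 and MYB114 had 0 counts in every library and 3 counts in rps2a2b alone, respectively.

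TTG1, the WD-repeat protein that these complexes share, is encoded on chromosome 5 from 8370317 to 8372847 on the minus strand. TTG1 had 483 and 486 counts in Col, 505 in atprmt3 and 386 in rps2a2b. Both mutants were slightly below Col, at 26.7 CPM (24.5 to 29.2) and 24.0 CPM (21.7 to 26.5) against 32.1 CPM (30.1 to 34.1). The log2 ratios were -0.26 (-0.42 to -0.10) and -0.42 (-0.59 to -0.25), and both widened intervals, -0.70 to 0.17 and -0.89 to 0.05, held 0.

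**Figure D2:**
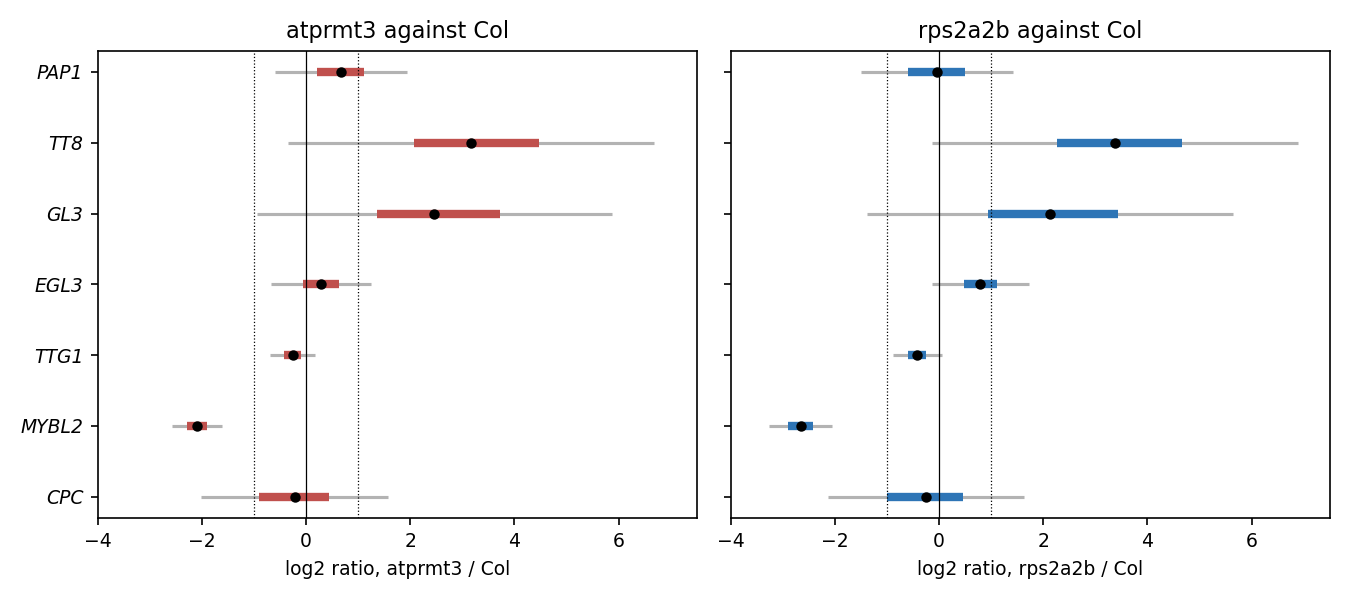
Log2 ratio to Col of the 7 regulators with counts in every group, in atprmt3 (left) and rps2a2b (right). Coloured bars are 95% counting intervals and dotted lines mark 2-fold. Grey lines are intervals widened by the chi-square factor between the mutant libraries, taken from genes with 10 to 99 summed counts. Of the 7, MYBL2, the most read in Col, is the one whose widened interval stays clear of 0 in both panels.

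Levels of different genes were compared per kilobase of merged exon. In Col the order from the highest was MYBL2 at 43.5 CPM per kilobase, TTG1 at 17.1, PAP1 at 2.60, CPC at 2.43, EGL3 at 2.11, TT8 at 0.132 and GL3 at 0.110, with PAP2 at 0. The neighbours PAP1 and CPC, CPC and EGL3, TT8 and GL3, and GL3 and PAP2 had overlapping intervals. In both mutants TTG1 stood first, at 14.2 in atprmt3 and 12.8 in rps2a2b, and MYBL2 second, at 10.2 and 6.86, with intervals that did not overlap. MYBL2 transcripts outnumbered TT8 transcripts 329-fold per kilobase in Col (167 to 764), 8.59-fold in atprmt3 (6.25 to 12.1) and 5.03-fold in rps2a2b (3.58 to 7.20). The corresponding ratio of MYBL2 to PAP1 was 16.7 in Col (13.5 to 21.0), 2.49 in atprmt3 (1.94 to 3.21) and 2.72 in rps2a2b (1.94 to 3.88). MYBL2 was the more abundant transcript of each pair in every genotype. The ratio to TT8 in Col rests on 8 TT8 counts, and TT8 entered the tested genes through the mutant libraries, so no difference between genotypes is read from it.

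**Figure D3:**
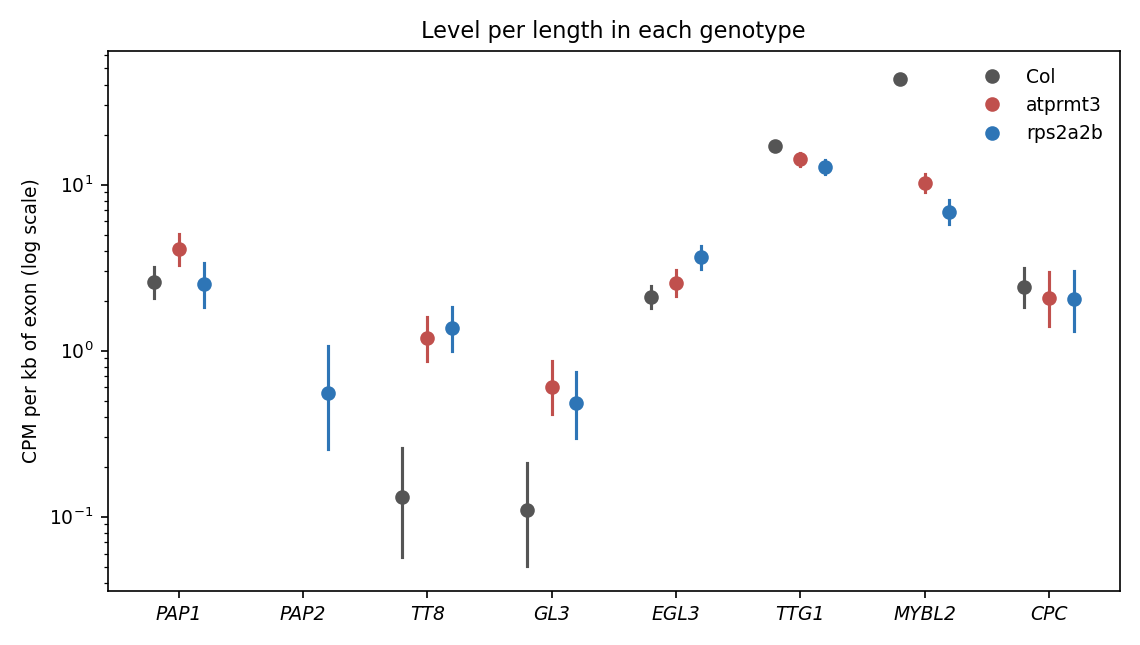
Level of each regulator per kilobase of exon (CPM per kb, log axis) in Col, atprmt3 and rps2a2b, with 95% counting intervals; groups with 0 counts of PAP2 are not drawn. MYBL2 leads in Col at 43.5 CPM per kb and stands below TTG1 in both mutants, at 10.2 and 6.86.

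Between the mutant libraries none of the 7 measured regulators was 2-fold apart, where 5.81% of all genes tested were at least 2-fold higher and 4.51% at least 2-fold lower in rps2a2b than in atprmt3. Both contrasts with Col use the same Col sample, so their likeness is not independent support. When the Col libraries are taken as separate samples, edgeR's quasi-likelihood test has 1 residual degree of freedom, compares the reads of libraries and not the genotypes, and called 53.7% of all genes in atprmt3 and 52.5% in rps2a2b, each against Col, and 25.4% between the mutants, at an adjusted p of 0.05. With such a background its calls carry little about single regulators. It called PAP1, TT8 and GL3 higher and TTG1 and MYBL2 lower in atprmt3, and TT8, GL3 and EGL3 higher and TTG1 and MYBL2 lower in rps2a2b. DESeq2 called TT8 higher and MYBL2 lower in each mutant and no other of the 7 measured regulators, against a background of 19.3% of all genes in atprmt3 and 20.2% in rps2a2b. Between the mutants it called 4.07% of the 17689 genes it gave an adjusted p, MYBL2, PAP1, EGL3 and TTG1 not among them, and gave TT8, GL3 and CPC none.

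**Figure D4:**
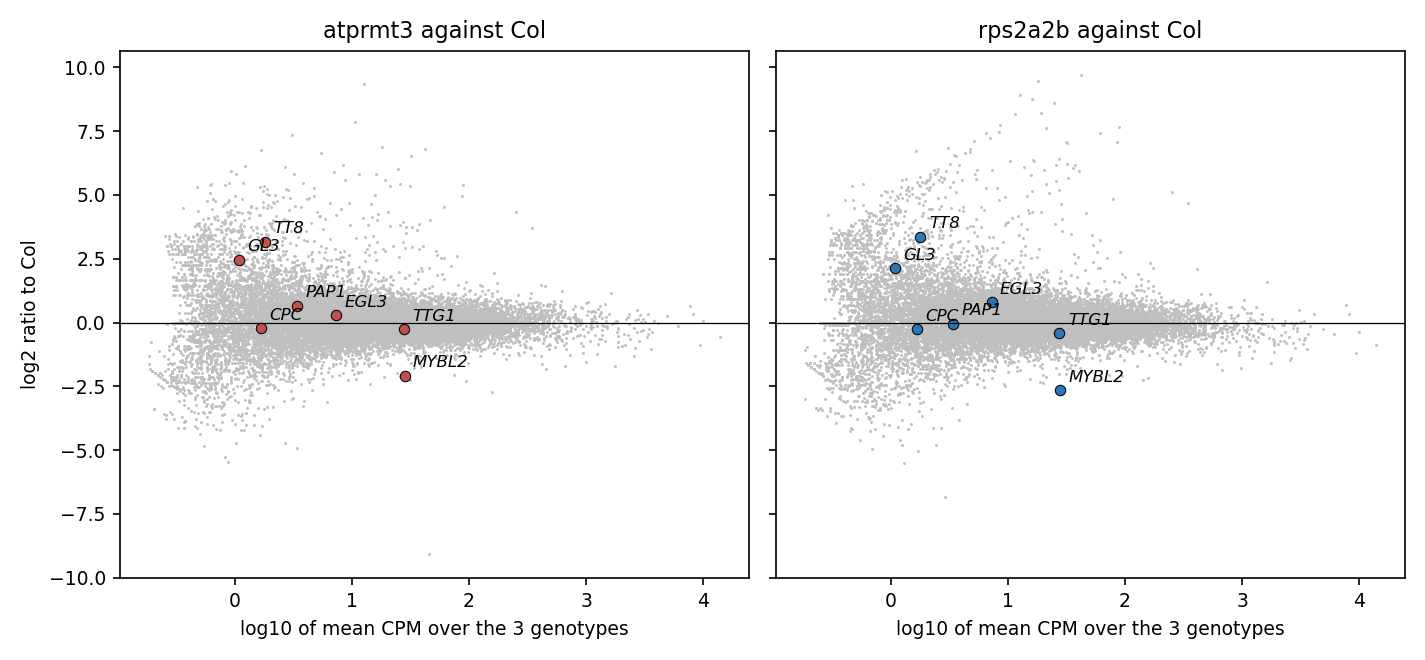
Log2 ratio to Col against the log10 of mean CPM for all 20937 genes tested (grey), in atprmt3 (left) and rps2a2b (right), with the 7 measured regulators labelled. MYBL2 lies at the lower edge of the genes of its abundance, at -2.09 and -2.66, while TT8 and GL3 sit among weakly read genes, whose ratios spread widely.

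Genes downstream of the complex were mostly higher in both mutants. Of 7 late anthocyanin genes, all 7 were measured, and 6 were at least 2-fold higher in each mutant and 0 lower, where 8.95% and 9.97% of all genes were higher. UGT79B1 and 5MAT passed the filter only through the mutant libraries and so had to differ. The gene lists here and below were chosen with earlier results of these data known, so their counts describe the lists and are no independent support. The 7 had a median log2 ratio of 3.84 in atprmt3 and 3.91 in rps2a2b. LDOX, for anthocyanidin synthase, had 11 and 4 counts in Col, 239 in atprmt3 and 243 in rps2a2b. UGT79B1, for an anthocyanin glycosyltransferase, had 4 and 8, 163 and 246 counts, which put it 21.7-fold (12.1 to 43.0) and 38.5-fold (21.7 to 75.6) above Col. DFR, for dihydroflavonol reductase and a direct target of the complex, had 11 and 18, 259 and 232 counts and stood 14.3-fold (9.72 to 21.8) and 15.03-fold (10.2 to 22.9) above Col. 5MAT, for an anthocyanin malonyltransferase, had 0 counts in Col and 189 and 102 in the mutants, at least 101-fold and at least 63.9-fold higher on the same proviso, with exact intervals beginning at 81.2-fold and 51.0-fold. The exception was UGT78D2, a glucosyltransferase that also serves flavonols, at 1.18-fold (1.04 to 1.33) and 1.39-fold (1.23 to 1.57).

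Of 6 early flavonoid genes, 2 were at least 2-fold higher in each mutant and 0 lower. The medians of their log2 ratios were 0.86 and 0.66. Among all genes tested, 8.95% and 9.97% were higher and 6.21% and 6.19% lower. CHI, for chalcone isomerase, stood at 2.67-fold (2.31 to 3.09) in atprmt3 and 2.04-fold (1.74 to 2.40) in rps2a2b, and FLS1, for flavonol synthase, at 2.01-fold (1.76 to 2.30) and 2.08-fold (1.81 to 2.39). Among the 3 flavonol MYB genes, of which MYB11 did not pass the filter, MYB111, which drives early genes without a bHLH partner, had 21 and 30 counts in Col, 105 in atprmt3 and 129 in rps2a2b. It was 3.30-fold (2.34 to 4.70) and 4.75-fold (3.41 to 6.71) above Col, while MYB12 stayed at 1.11-fold (0.856 to 1.42) and 0.703 of Col (0.511 to 0.956).

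Other MYB partners of the bHLH proteins were mostly weak. Of 6 such genes, 3 passed the filter, with 1 higher and 0 lower in atprmt3 and 1 higher and 1 lower in rps2a2b, and TT2 and MYB113 had 0 counts throughout. WER, which specifies non-hair cells of the root, had 1 count in each Col library, 16 in atprmt3 and 20 in rps2a2b, or 12.8-fold (3.01 to 115) and 18.8-fold (4.56 to 166) the Col level, and it too passed the filter only through the mutants. GL1, the trichome MYB, had 16 and 27, 18 and 8 counts and was 2-fold or more below Col in rps2a2b alone, with a log2 ratio of -1.52. Of 6 further CPC-type genes, 4 passed the filter, with 1 higher and 1 lower in atprmt3 and 0 higher and 1 lower in rps2a2b. Among all genes tested, 8.95% and 9.97% were at least 2-fold higher and 6.21% and 6.19% lower. With 3 and 4 genes measured, these counts are no result about either list. ETC1 was lower in both mutants, with 31 and 29 counts in Col, 15 in atprmt3 and 11 in rps2a2b, and log2 ratios of -1.32 and -1.54. TRY, the trichome repressor, had 10 counts in atprmt3 and 0 in every other library. CPL3 was higher in atprmt3, at 3.20-fold (1.29 to 8.64) from 8 Col counts, and passed the filter through that library. The counts of WER, GL1, ETC1, TRY and CPL3 were small, and no widened intervals are given for them. Their differences are therefore not shown to exceed the variation between libraries.

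Of 12 other regulators, all passed the filter, with 1 higher and 0 lower in atprmt3 and 1 higher and 1 lower in rps2a2b, which is near the share of all genes past 2-fold (8.95% and 9.97% higher, 6.21% and 6.19% lower) and is no result about the list. MYB4, a repressor of phenylpropanoid genes, was the higher one in both, with 118 and 111 counts in Col, 448 in atprmt3 and 298 in rps2a2b. HYH, a bZIP relative of HY5, was the lower one, at 16 counts in rps2a2b against 46 and 31 in Col. HY5, the light-signalling factor, stood at log2 ratios of -0.16 and -0.03, and the nitrogen-responsive repressor LBD37 at -0.43 and -0.44. Among genes that the epidermal complexes control or contain, TTG2 had 15 and 20 counts in Col, 71 in atprmt3 and 95 in rps2a2b, 3.25-fold (2.14 to 5.02) and 5.10-fold (3.43 to 7.74) above Col. GL2, which keeps root cells hairless and promotes trichomes, was lower, at log2 ratios of -1.25 and -0.82.

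**Figure D5:**
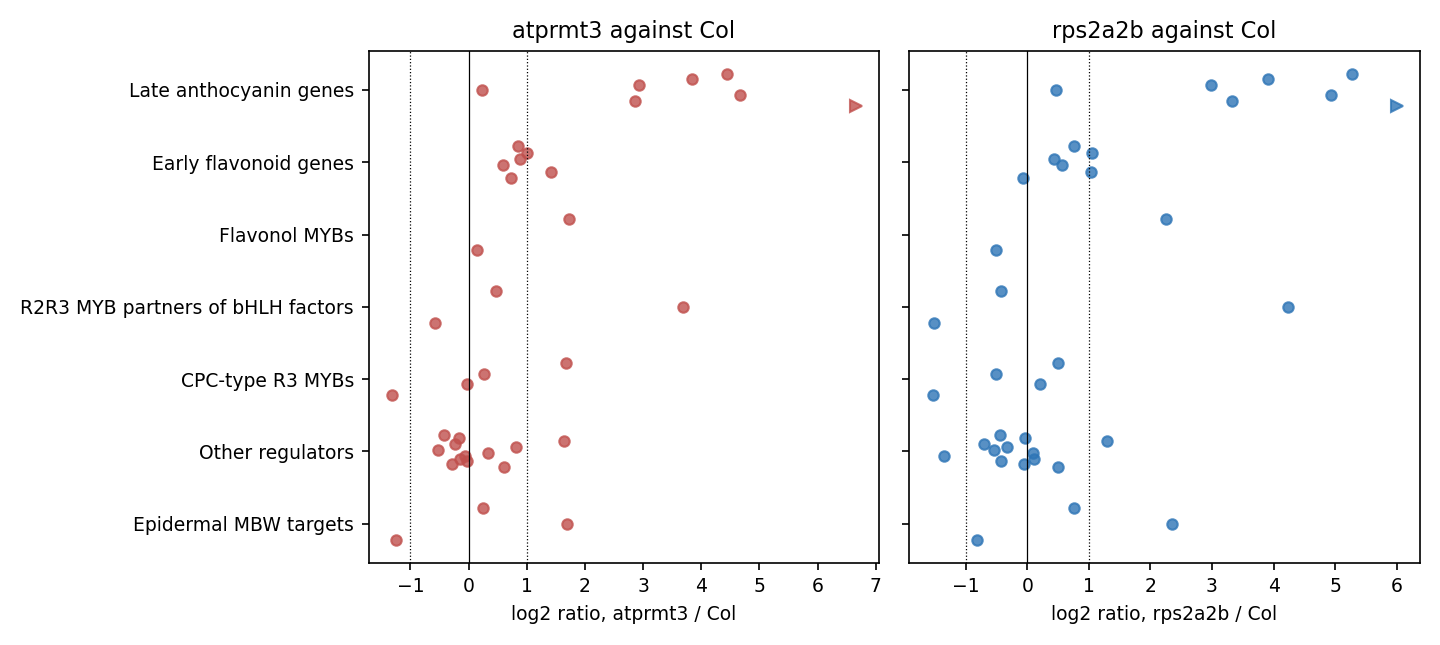
Log2 ratio to Col of the measured genes of 7 pathway lists in atprmt3 (left) and rps2a2b (right); each point is a gene, triangles are lower bounds for a gene with 0 Col counts, and dotted lines mark 2-fold. In both panels 6 of 7 late anthocyanin genes lie beyond 2-fold, where 2 of 6 early flavonoid genes do. The lists were chosen with earlier results of these data known.

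Markers of other tissues also differed between the genotypes. Of 9 seed storage genes, 7 passed the filter, 3 of them only through the mutants, and 6 were at least 2-fold higher in atprmt3 and 7 in rps2a2b. The share of all genes tested that was higher was 8.95% in atprmt3 and 9.97% in rps2a2b. The summed level of the 9 seed storage genes was 42.8 CPM in Col, 664 in atprmt3 and 1295 in rps2a2b, with SESA4 at 0 in every library. Of 4 seed coat markers, the proanthocyanidin genes BAN and TT12 and the seed coat regulator TT16 had 0 counts in every library, and the list summed to 1.99, 1.17 and 2.61 CPM. The 3 root hair markers summed to 9.10, 14.5 and 16.0 CPM, with RHD6 at least 2-fold higher in both mutants. The 4 root markers summed to 2720, 2966 and 3700 CPM, almost all of it PYK10, and CASP1, SHR and SCR were below Col in both mutants. The 4 leaf markers summed to 38703, 30489 and 24439 CPM, with CAB1 and CAB3 lower in both mutants and CAB3 at least 2-fold so. RBCS1A and RCA were at 1.045 and 1.03 of Col in atprmt3 and at 0.763 and 0.908 in rps2a2b. The part of these shifts in the values of the regulators was not tested.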

How the data were processed

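Libraries were strand-specific mRNA libraries made by dUTP marking from Trizol RNA, per the labels' protocols. Per the submitters' processing notes, TopHat2, HTSeq, edgeR and the TAIR10 build were used, with no versions; read length and strand setting are not given in the sources used here. The deposited values are raw counts per gene, made by the authors without normalization. Reads on no gene made up 1.37% to 1.80% of each library, and these and other unassigned reads were left out.

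The 8 genes were matched by locus. Members and gene lists were chosen with earlier results of these data known. Positions, exon lengths and promoters came from the RefSeq TAIR10.1 annotation, the TAIR10 nuclear assembly, which listed 33056 of the 33341 identifiers. Low genes were removed by filterByExpr (at least 10 counts, 15 in total), and CPM were scaled by TMM factors in edgeR 4.0.16 under R 4.3.3, with DESeq2 1.42.0 as an alternative. Ratios carry no pseudocount and have exact conditional (Clopper-Pearson) 95% intervals; levels have exact Poisson intervals. A 0 was set to a floor of 3 counts per group. Widened intervals multiplied the counting variance by 6.12, or 11.2 for the summed Col libraries. True mutant differences enter this factor. It was taken from genes with 10 to 99 summed counts. For genes with more counts, such as MYBL2 and TTG1, it may be too small. Reads carry no molecular identifiers, so intervals and floors cover counting error only. The ratio procedure was tested on simulated data, but no outcome is given here, so nothing said about the intervals rests on it. Pathway examples are those farthest from Col, besides genes named for their role after values were seen.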

Additional observations from a re-analysis of the deposited data

How the results depend on the processing

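No paired analysis was possible because no mutant library belongs to a particular Col library and the mutants have a single library each. The 3 calls in each mutant against Col were the same under DESeq2 size factors, upper-quartile factors, total counts, a pseudocount of 0.5 CPM and without either Col library. MYBL2 ranged from -2.11 to -2.02 in atprmt3 and from -2.68 to -2.53 in rps2a2b over 7 alternatives. Total counts moved the median of all genes by 0.13 in rps2a2b. Without a filter PAP2 was added, giving 4 regulators in rps2a2b against Col and 1 in rps2a2b against atprmt3. A pseudocount of 0.5 CPM lowered TT8 to 1.91 and 2.08 and GL3 to 1.42 and 1.18, since it outweighs 8 and 9 Col counts. Over all genes it left 2128 in atprmt3 and 2446 in rps2a2b at least 2-fold from Col. Taking in turn atprmt3 and rps2a2b against Col and then the mutants against each other, over all genes the 2-fold rule called 3174, 3384 and 2161, a 1.5-fold rule 6489, 6716 and 4427, and the 2-fold rule with widened intervals 1038, 1246 and 440. edgeR's quasi-likelihood test called 11236, 10995 and 5316, DESeq2 called 4043, 4222 and 720, and the pseudocount left 1259 there. Regulators called were 1, 1 and 0 with widened intervals, which kept MYBL2 and lost TT8 and GL3, 5, 5 and 1 by edgeR, and 1 in the last (PAP1) with the 1.5-fold rule. Against Col, the 1.5-fold rule called 4 regulators in each mutant. The order per length was the same for all 8 with the longest transcript. The depth limits TT8, GL3, PAP2 and CPC, which had at most 56 Col counts.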
